A study of Arabidopsis thaliana with 32 samples.

Results

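Low R/FR light and warm temperature each promote hypocotyl elongation, and the comparison described here set the transcripts of seedlings given one signal for 3 h directly against those of seedlings given the other. It used 4 of the 32 libraries of the series. 2 libraries came from seedlings moved to low R/FR (R/FR = 0.6) at 21 °C (21FR), and 2 from seedlings moved to 30 °C in white light (30WL). They were chosen by condition and time alone, and all genes with enough counts were compared. The 4 libraries were from wild-type Col-0 Arabidopsis grown for 3 days in constant white light of about 70 µE at 21 °C before the transfer. Each was made from a pool of about 25 whole seedlings. Hypocotyl, cotyledons and root were not separated, so that fewer cells of a type and less RNA per cell cannot be told apart. Seedlings kept at 21 °C in white light (21WL) and seedlings given both signals (30FR) gave 4 more libraries at 3 h, and the same 4 conditions were also sampled at 1, 6 and 24 h.

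Both signals act on phytochrome B, a photoreceptor that red light activates and that far-red light and warmth return to its inactive form. Active phytochrome B restrains the PIFs, bHLH transcription factors that switch on growth genes, among them genes of auxin synthesis and response. Warm temperature acts in addition on proteins throughout the cell, and heat shock factors then induce chaperones that keep proteins folded.

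The 4 libraries held 13890522 to 22971500 counts on genes. Alignments counted as not unique were 35.3 and 36.5% of the total count in 21FR, against 22.1 and 15.3% in 30WL. Organelle genes took 1.19 and 1.28% of the counts on genes in 21FR and 0.551 and 0.550% in 30WL. Both shares thus differed between the groups, and their part in the results was not tested. Of 19 tested markers of root hair cells, root endodermis and stele, guard cells and seed, 0 were called by edgeR or by DESeq2, and 2 had an unadjusted p under 0.05. The summed level of the 6 root hair markers was 164 and 197 CPM in 21FR, against 168 and 184 CPM in 30WL. It was 185 and 180 CPM against 197 and 186 CPM for the 5 markers of root endodermis and stele, and 66.8 and 65.0 CPM against 54.7 and 60.9 CPM for the 4 guard cell markers. The seed markers were near 0, with 2 of 6 too low to test and summed levels of 1.08 and 2.76 CPM in 21FR, against 0.878 and 1.27 CPM in 30WL. Green cell markers summed to 51412 and 49676 CPM in 21FR and to 54104 and 56202 CPM in 30WL, and 1 of the 6, LHCA1, was called lower in 21FR. CPM are counts scaled to library size after TMM normalization.

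Of 20145 genes tested, 492 (2.44%) were higher in 21FR and 540 (2.68%) were higher in 30WL, which together were 5.12% of the genes. Called were genes with an FDR below 0.05, the p of edgeR's quasi-likelihood test adjusted by Benjamini-Hochberg, and an absolute log2 fold change (log2FC) over 1. All log2FC below are 21FR over 30WL unless another comparison is named, with the standard error after ±. The median log2FC of all genes was 0.01, so that the groups were centred on each other. The called genes were of similar size in both directions, with a median absolute log2FC of 1.34 for those higher in 21FR and of 1.37 for those higher in 30WL. The far end was not: 4 genes were higher in 21FR by more than 5 on the log2 scale, and 20 genes were higher in 30WL by as much. At the FDR alone, 5840 of the 20145 genes differed, 2925 higher in 21FR and 2915 higher in 30WL. Counts of list members at the FDR alone are to be read beside this share. So are counts at an unadjusted p under 0.05, which every gene that passes the FDR also has.

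The gene with the smallest FDR among those higher in 21FR was PIL1, a bHLH gene long used as a marker of shade. Its level was 42.0 and 38.7 CPM in the 21FR libraries and 0.658 and 1.32 CPM in the 30WL libraries (log2FC 5.27 ± 0.26, FDR 3.66e-11). The 30WL libraries lay near those of 21WL, at 0.519 and 0.686 CPM. HFR1, whose product binds PIFs and keeps them off DNA, was at 58.2 and 55.6 CPM in 21FR and at 8.19 and 10.3 CPM in 30WL (log2FC 2.61 ± 0.25, FDR 2.73e-07). The groups did not overlap for either gene. These were 2 of the 4 HLH brakes tested. PAR1 (log2FC 0.15) and PAR2 (-0.24), which also hold back PIFs, had overlapping groups and FDRs of 0.739 and 0.437.

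The HD-Zip II factors are homeodomain proteins that promote growth in shade. 3 of 9 were higher in 21FR and 0 were higher in 30WL, with a median log2FC of 0.33. ATHB2, the best known of them, was at 42.1 and 44.5 CPM in 21FR and at 6.66 and 5.09 CPM in 30WL (log2FC 2.90 ± 0.19, FDR 1.27e-09). The 21WL libraries, at 7.96 and 5.83 CPM, lay with those of 30WL. ATHB4 (log2FC 1.24 ± 0.25) and HAT3 (1.06 ± 0.16) were the other two, and HAT2 (0.52, FDR 0.00913) was under the threshold on the log2FC. HAT3 fell under that threshold without 21FR replicate 2 (0.97) and without 30WL replicate 1 (0.97).

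Of the PIF genes themselves, 1 of 6, PIF4, was higher in 30WL and 0 were higher in 21FR, and 4 of 6 were higher in 30WL at the FDR alone, with a median log2FC of -0.69. PIF4, the PIF most tied to warm temperature, was at 25.0 and 31.8 CPM in 21FR and at 76.3 and 97.5 CPM in 30WL (log2FC -1.62 ± 0.24, FDR 5.10e-05). All 30WL values were thus above all 21FR values. PIF5 (-0.89 ± 0.16), PIF7 (-0.81 ± 0.18) and PIF1 (-0.58 ± 0.12) were lower in 21FR by less than the threshold on the log2FC. PIF6 (0.77, FDR 0.183) and PIF3 (0.29, FDR 0.571) lay on the side of 21FR and did not pass the FDR. For PIF7, the PIF most tied to shade, the levels were 14.9 and 17.3 CPM in 21FR, 29.9 and 26.4 CPM in 30WL, and 20.4 and 21.2 CPM in 21WL.

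Of 18 genes of phytochromes and light signalling, 4 were higher in 21FR and 0 were higher in 30WL. They were PHYB, ELIP1, ELIP2 and, named after its value was seen, FHL. The level of FHL was low, at 1.58 and 1.62 CPM in 21FR and at 0.658 and 0.204 CPM in 30WL (log2FC 1.98 ± 0.66, FDR 0.0262). PHYB, which encodes phytochrome B, was at 175 and 178 CPM in 21FR and at 91.5 and 81.4 CPM in 30WL (log2FC 1.03 ± 0.08, FDR 2.13e-08). The difference was small but far larger than the spread of the libraries, although it fell to 0.94, under the threshold, without 30WL replicate 2. The other phytochrome genes had log2FC from 0.00 for PHYC to 0.42 for PHYD. ELIP2 and ELIP1 encode early light-induced proteins, which protect chloroplast membranes from excess light. ELIP2 was at 168 and 106 CPM in 21FR and at 19.9 and 16.8 CPM in 30WL (log2FC 2.90 ± 0.21, FDR 5.92e-09). ELIP1 had a log2FC of 1.63 ± 0.24. Here the 21WL libraries, at 99.9 and 101 CPM for ELIP2, lay with those of 21FR.

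**Figure D1:**
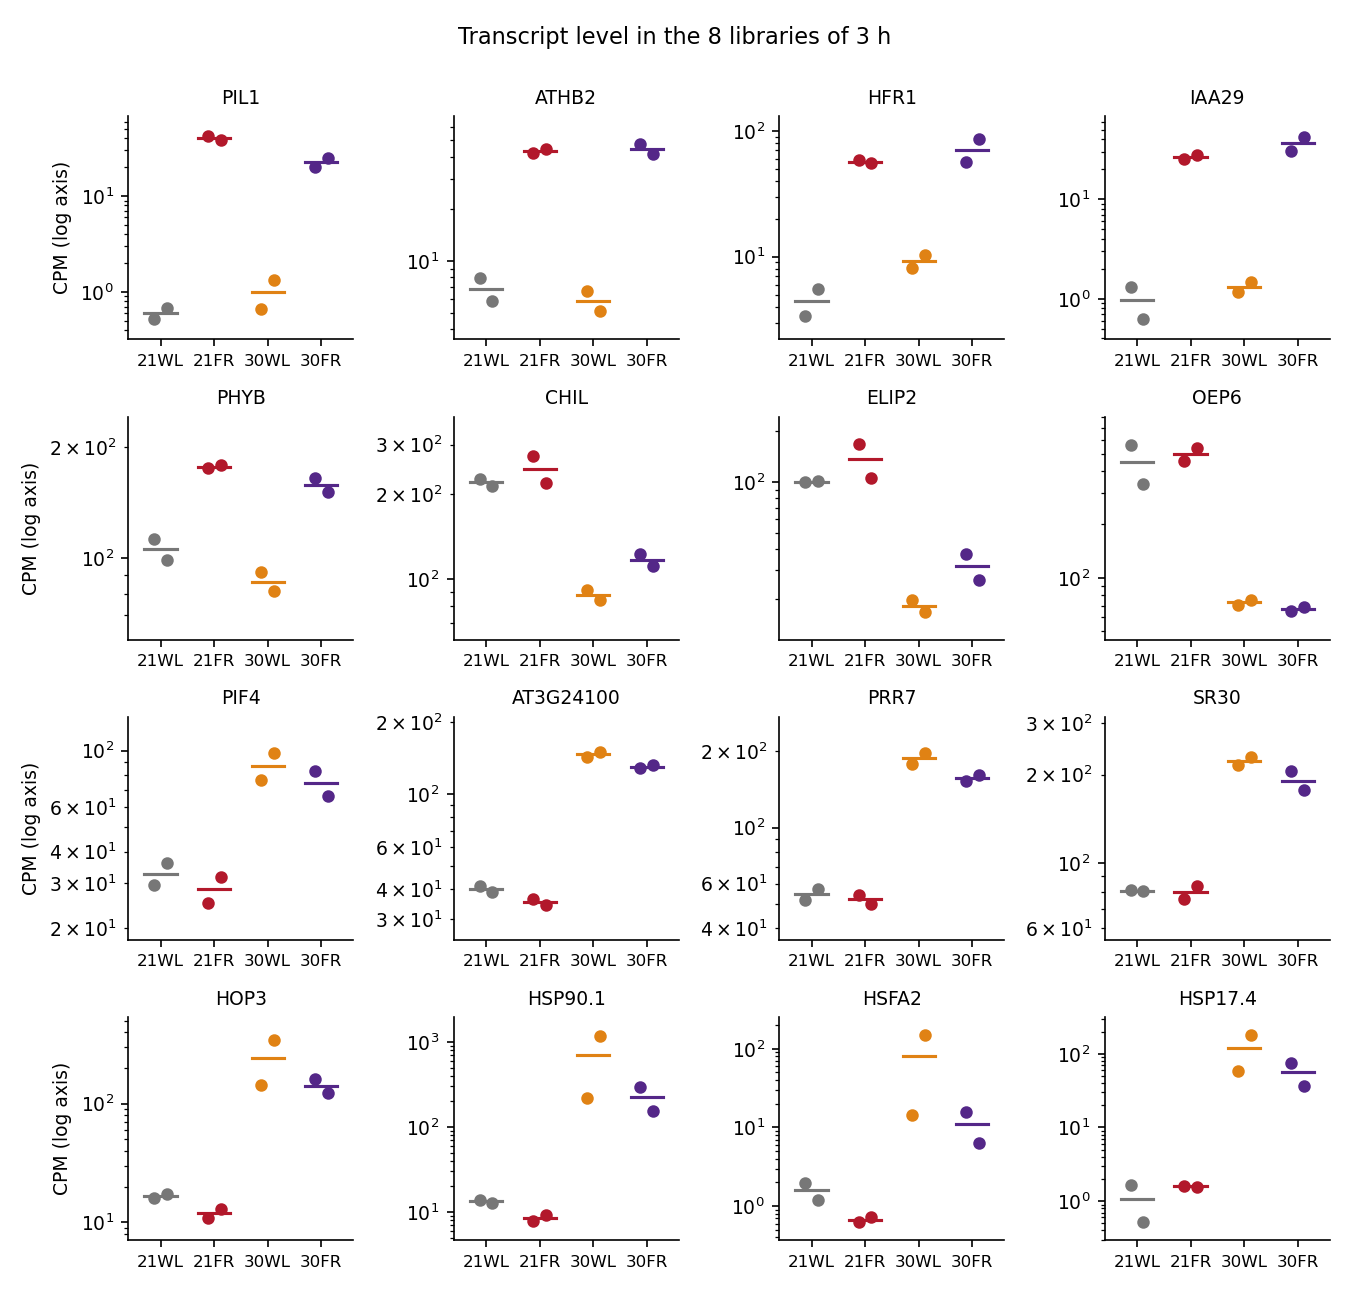
Transcript level of 16 genes in the 8 libraries of 3 h. Each point is 1 library in CPM on a log axis, each line the mean of the 2 libraries of a group, and the panels differ in range. PIL1, ATHB2, HFR1 and IAA29 stood high in 21FR and 30FR and low in 21WL and 30WL, while CHIL, ELIP2 and OEP6 were low in both groups at 30 °C, and the 8 genes from PIF4 to HSP17.4 were high in both.

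Auxin genes differed in a few members. IAA29, an Aux/IAA repressor of auxin response, was at 25.5 and 28.0 CPM in 21FR and at 1.17 and 1.48 CPM in 30WL (log2FC 4.31 ± 0.38, FDR 8.41e-08). It was the only one called of 25 Aux/IAA genes. The list had a median log2FC of 0.14, and IAA19 had a log2FC of 0.76 at an FDR of 0.0474. Of 10 genes of auxin synthesis, 1 was called. This was YUC8, a flavin monooxygenase of the last step of synthesis, at 10.8 and 10.3 CPM in 21FR and at 4.39 and 4.83 CPM in 30WL (log2FC 1.19 ± 0.27, FDR 0.00229). The related YUC9 was at 3.65 and 3.54 CPM in 21FR and at 2.41 and 2.04 CPM in 30WL (log2FC 0.70, FDR 0.0499).

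SAUR genes encode small auxin-induced proteins that promote cell expansion. 8 of 54 were higher in 21FR and 0 were higher in 30WL, with a median log2FC of 0.36. SAUR22 was at 4.73 and 4.68 CPM in 21FR and at 0.658 and 0.051 CPM in 30WL (log2FC 3.91 ± 0.59, FDR 4.98e-05). SAUR23 (3.43 ± 0.56), SAUR19 (2.06 ± 0.63) and SAUR20 (1.53 ± 0.27) belong to the same cluster of near-identical genes. So do SAUR24 (1.23) and the SAUR21 entry AT5G18030 (1.11), named after their values were seen. Reads with several places of alignment were not counted, so that the values of this cluster are uncertain. The called genes outside the cluster were SAUR1 (1.45) and SAUR41 (1.19), named in the same way. The summed level of the whole list was 390 and 385 CPM in 21FR, against 469 and 392 CPM in 30WL. The count of 8 rested on few reads: it fell to 5 without either 21FR library and to 4 without 30WL replicate 2, and DESeq2 called 5. SAUR78 lay on the other side of 0, at 61.5 and 53.2 CPM in 21FR and at 111 and 114 CPM in 30WL (log2FC -0.97, FDR 0.000695), under the threshold.

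The median log2FC was 0.21 for genes of auxin transport and 0.06 for genes of auxin inactivation. Of 14 transport genes, 1 was called, PIN5, an auxin carrier of the endoplasmic reticulum (log2FC 1.63 ± 0.38), and this call was lost without 30WL replicate 2 (FDR 0.0578). The efflux carriers PIN3 (0.62 ± 0.10) and PIN4 (0.60 ± 0.14) were higher in 21FR at the FDR alone. PIN3 was at 155 and 142 CPM in 21FR and at 94.5 and 98.7 CPM in 30WL. Of 8 genes that inactivate auxin, GH3.3 was called at the edge of the threshold (log2FC 1.0, FDR 0.0493), and not without 21FR replicate 1 (0.64, FDR 0.369), 30WL replicate 1 (1.08, FDR 0.119) or 30WL replicate 2 (0.90, FDR 0.226). GH3.17 (0.47 ± 0.11) and GH3.6 (0.37 ± 0.14), which join auxin to amino acids, were higher in 21FR at the FDR alone. UGT74D1, an auxin glucosyltransferase, had overlapping groups (log2FC 0.13, FDR 0.448).

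Among 10 gibberellin oxidases the 2 directions were mixed. GA20OX3, which makes gibberellin precursors, was at 2.93 and 2.46 CPM in 21FR and at 0.293 and 0.407 CPM in 30WL (log2FC 2.89 ± 0.42, FDR 2.84e-05). GA2OX1, which inactivates gibberellin, was also higher in 21FR (2.42 ± 0.38, FDR 6.42e-05). GA3OX1, which makes the active hormone, was at 14.2 and 8.46 CPM in 21FR and at 24.6 and 32.6 CPM in 30WL (-1.33 ± 0.21, FDR 9.21e-05). GA3OX2, which catalyses the same step as GA3OX1, was at 3.65 and 4.50 CPM in 21FR and at 3.8 and 2.95 CPM in 30WL, with overlapping groups (0.28, FDR 0.494). Of 11 genes of ethylene synthesis, 2 were higher in 21FR. ACS8, a synthase of the ethylene precursor, had a log2FC of 2.90 ± 0.70 at an FDR of 0.00349, and ACS4 had 16 and 5 counts in 21FR and 1 and 0 counts in 30WL. The call of ACS4 was lost without 21FR replicate 1 (FDR 0.185) and without 30WL replicate 2 (FDR 0.187). Of 10 brassinosteroid genes 0 were called by edgeR or DESeq2, and 4 had an unadjusted p under 0.05. BR6OX1, an oxidase of brassinosteroid synthesis, had a log2FC of -0.86 ± 0.22.

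XTHs cut and rejoin xyloglucan in the wall. 5 of 29 were higher in 30WL and 1 was higher in 21FR, with a median log2FC of -0.25. XTH7 was at 79.4 and 78.7 CPM in 21FR and at 187 and 206 CPM in 30WL (log2FC -1.31 ± 0.17, FDR 8.76e-06). The 21WL libraries, at 142 and 127 CPM, lay between both groups. XTH25 (-2.84 ± 0.48), XTH10 (-1.38 ± 0.26) and XTH6 (-1.09 ± 0.20) were also higher in 30WL, and XTH20, named after its value was seen, was higher in 21FR (1.95 ± 0.37). Alpha-expansins, which loosen the wall, had a median log2FC of 0.23. Of 19, 0 were called by edgeR or DESeq2, 7 had an unadjusted p under 0.05 and 5 passed the FDR alone, all higher in 21FR. Over all 20145 genes tested, 5840 passed the FDR alone, 2925 of them higher in 21FR. EXPA8 had overlapping groups, at 55.0 and 52.5 CPM in 21FR and at 60.5 and 48.6 CPM in 30WL (log2FC -0.02, FDR 0.961). Of 9 cellulose synthases, 0 were called by edgeR or DESeq2 and 1 had an unadjusted p under 0.05, CESA5 (0.56 ± 0.11).

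Genes of flavonoid synthesis were the list with the highest median higher in 21FR. 12 of 14 were called, 0 were higher in 30WL, and the median log2FC was 1.64. They make the flavonols and anthocyanins that screen plants from light. CHIL, which helps the early steps of the pathway, was at 273 and 218 CPM in 21FR and at 91.4 and 84.1 CPM in 30WL (log2FC 1.49 ± 0.10, FDR 2.07e-09). CHI, the chalcone isomerase, was at 114 and 95.3 CPM in 21FR and at 34.4 and 27.4 CPM in 30WL (1.76 ± 0.13, FDR 6.85e-09). In both genes the lowest 21FR library was more than 2 times the highest 30WL library, and the 21WL libraries lay near those of 21FR, at 227 and 214 CPM for CHIL. FLS1, the flavonol synthase, had a log2FC of 1.24 ± 0.15, and MYB11, a factor that activates flavonol genes, 2.86 ± 0.33.

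The widest differences in the pathway were in the anthocyanin branch, with genes named after their values were seen. DFR, its first enzyme, was at 144 and 108 CPM in 21FR and at 17.1 and 8.6 CPM in 30WL (log2FC 3.32 ± 0.62). LDOX, the next enzyme, was at 95.5 and 63.8 CPM in 21FR and at 10.3 and 5.90 CPM in 30WL (3.33 ± 0.56). MYB75, which activates these genes, was at 7.52 and 6.90 CPM in 21FR and at 1.24 and 0.763 CPM in 30WL (2.88 ± 0.80). The libraries of one group differed by up to 2 times in these genes, and the groups did not overlap. The 2 genes that were not called were MYB12 (log2FC 0.15, FDR 0.581), a flavonol factor like MYB11, and MYB90 (FDR 0.191), which was below 1.1 CPM in the 4 libraries. Without 30WL replicate 2, 9 of 14 were called.

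The promoters of CHIL and PHYB are shown because each holds the G-box, the letters CACGTG to which PIFs and related factors can bind. Each window is the 250 bases before the annotated start of the gene, in the direction of transcription, from RefSeq's TAIR10.1 assembly, at chr5:1563036-1563285, plus strand, for CHIL and at chr2:8139506-8139755, plus strand, for PHYB. Capitals mark the G-boxes.
CHIL: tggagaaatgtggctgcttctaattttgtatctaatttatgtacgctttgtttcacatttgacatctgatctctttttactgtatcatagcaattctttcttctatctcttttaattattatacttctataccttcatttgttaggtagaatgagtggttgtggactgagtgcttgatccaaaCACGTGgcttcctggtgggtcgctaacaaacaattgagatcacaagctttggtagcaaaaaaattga
PHYB: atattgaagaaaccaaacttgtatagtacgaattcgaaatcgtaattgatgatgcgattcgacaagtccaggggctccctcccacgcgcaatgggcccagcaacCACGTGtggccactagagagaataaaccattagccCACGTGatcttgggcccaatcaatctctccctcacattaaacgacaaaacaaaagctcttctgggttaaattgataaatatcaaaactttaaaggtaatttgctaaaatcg

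CHIL thus holds 1 G-box in this window and PHYB holds 2. The same window of 250 bases held a G-box in 6 of the 14 flavonoid genes (42.9%), in 7.65% of 19555 tested genes with a window, in 10.7% of 469 genes higher in 21FR and in 10.6% of 500 genes higher in 30WL. G-boxes were therefore no more frequent among genes of one direction than among those of the other. A related letter string, CATGTG or its reverse CACATG, was in 14.9% of the windows of genes higher in 21FR, in 9.6% of those higher in 30WL and in 11.4% of the tested genes. These are matches of letters and not bound sites, and a window without one may have a G-box farther away.

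The 3 other genes among the 10 with the smallest FDRs higher in 21FR were OEP6, MEE31 and AT1G06000. OEP6, a protein of the outer envelope of the chloroplast, was at 458 and 541 CPM in 21FR and at 70.7 and 75 CPM in 30WL (log2FC 2.78 ± 0.24, FDR 7.88e-08). MEE31, a mannose-6-phosphate isomerase, was at 99.7 and 90.8 CPM in 21FR and at 43.4 and 50.1 CPM in 30WL (1.02 ± 0.09), and without 21FR replicate 1 (0.94) or 30WL replicate 1 (0.93) it was under the threshold on the log2FC. AT1G06000, annotated as a UDP-glycosyltransferase, was at 178 and 153 CPM in 21FR and at 47.6 and 35.4 CPM in 30WL (2.0 ± 0.18). None of these groups overlapped.

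The 7 listed small heat shock proteins, chaperones that hold unfolding proteins, were all higher in 30WL, with a median log2FC of -6.77. HSP17.4 was at 1.62 and 1.56 CPM in 21FR and at 58.2 and 180 CPM in 30WL (log2FC -6.22 ± 0.58, FDR 2.20e-07). HSP17.6A was at 0.585 and 0.840 CPM in 21FR and at 32.4 and 222 CPM in 30WL (-7.51 ± 0.83, FDR 1.53e-06). The 2 libraries of 30WL thus differed by 3 times or more, and both were far above those of 21FR. HSP23.6-MITO, of the mitochondria, had 0 and 1 counts in 21FR and 480 and 2940 counts in 30WL. HSP17.6II had 3 and 3 counts in 21FR and 468 and 2429 counts in 30WL. With these 2 genes at the bound that 3 counts per library set, the median stayed at -6.77. HSP21, HSP22.0 and HSP18.2 completed the list, at log2FC of -6.77, -3.53 and -2.48.

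Of 15 genes of the HSP70, HSP90 and HSP100 families, 8 were higher in 30WL and 0 were higher in 21FR, with a median log2FC of -1.03. HSP90.1, the heat-inducible cytosolic HSP90, was at 7.79 and 9.18 CPM in 21FR and at 220 and 1174 CPM in 30WL (log2FC -6.37 ± 0.55, FDR 7.24e-08). HSP70 was at 16.9 and 23.8 CPM in 21FR and at 336 and 1383 CPM in 30WL (-5.41 ± 0.54, FDR 4.91e-07). The constitutive HSP90.2 differed by less, at 239 and 252 CPM in 21FR and at 331 and 832 CPM in 30WL (-1.24 ± 0.25, FDR 0.000781), and HSP90.2 has a near-identical copy. CLPB4 (-2.13 ± 0.21) and MTHSC70-2 (-1.33 ± 0.15), both of the mitochondria, were also higher in 30WL.

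The 30WL libraries differed from each other in most heat genes. Of 53 genes in the 4 heat lists, 45 were higher in replicate 2 than in replicate 1 of 30WL and 25 were higher by more than 2 times, against 0 by more than 2 times in 21FR. Over all 15344 genes with a mean of at least 5 CPM at 3 h, 66 were higher in 30WL replicate 2 by more than 2 times and 12 were lower. Without 30WL replicate 2, 4 of the 15 HSP70, HSP90 and HSP100 genes were called, with a median log2FC of -0.48, and HSP90.2 was not (log2FC -0.44, FDR 0.0872). Of the small heat shock proteins, 6 of 7 were still called without it, with a median log2FC of -5.54, as many as without any other single library of the 4.

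**Figure D2:**
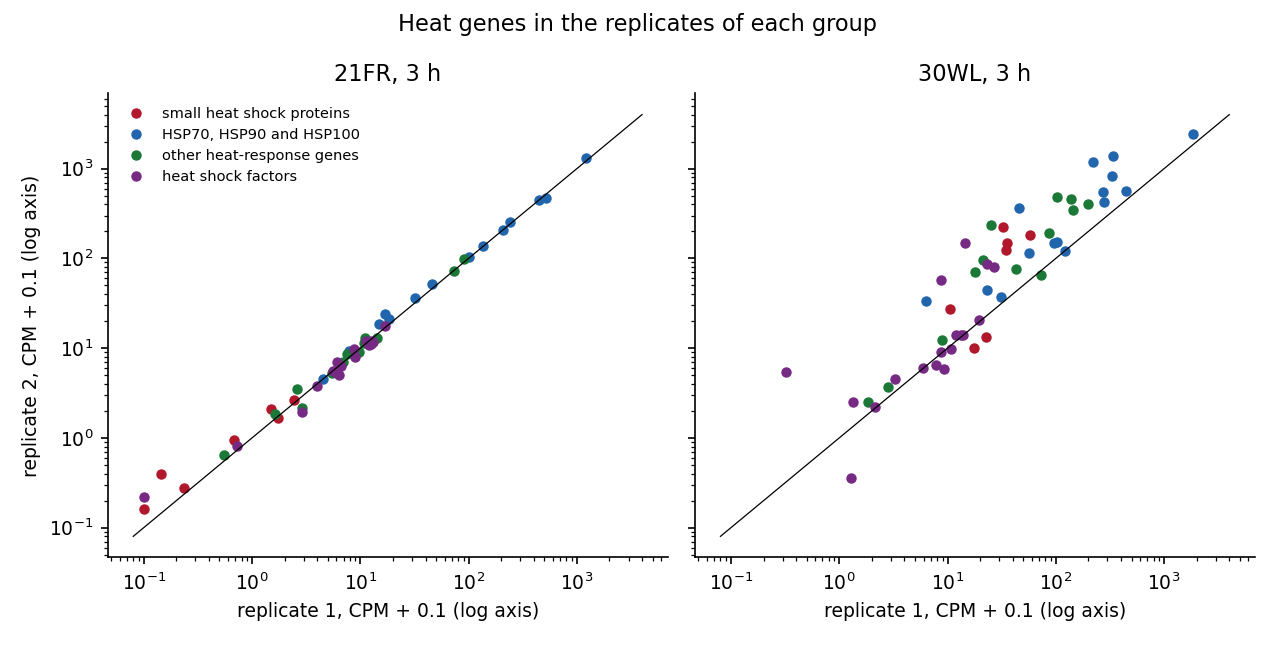
Level of 53 heat genes in replicate 1 (horizontal) and replicate 2 (vertical) of 21FR and of 30WL at 3 h, in CPM plus 0.1 on log axes, with colour for the gene list and a line where both are equal. The 21FR points lie along the line, and in 30WL 45 of the 53 genes were higher in replicate 2.

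The heat shock factors that drive these chaperones were split. Of 18, 5 were higher in 30WL and 1 was higher in 21FR, with a median log2FC of -0.23. HSFA2, the factor most induced by heat, was at 0.630 and 0.720 CPM in 21FR and at 14.3 and 148 CPM in 30WL (log2FC -6.92 ± 0.86, FDR 5.71e-06). HSFB2B (-2.62 ± 0.34) and HSFB2A (-2.17 ± 0.33), which are repressors, were higher in 30WL too. The HSFA1 genes, which act first in the response and whose proteins are present before heat, did not pass the FDR, with log2FC from -0.25 for HSFA1B to 0.56 for HSFA1E. HSFA7B was called on 0 and 2 counts in 21FR and 3 and 104 counts in 30WL, and without 30WL replicate 2 its FDR was 0.44 and the list had 3 genes higher in 30WL. HSFA6B was higher in 21FR (1.51 ± 0.41).

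Of 13 other heat-response genes, 10 were higher in 30WL and 0 were higher in 21FR, with a median log2FC of -3.49 that fell to -1.43 in size without 30WL replicate 2, when 8 were called. HOP3, a co-chaperone that links HSP70 and HSP90, was at 10.9 and 13.0 CPM in 21FR and at 143 and 347 CPM in 30WL (log2FC -4.36 ± 0.27, FDR 8.27e-10). GOLS1, a galactinol synthase, was at 2.48 and 3.42 CPM in 21FR and at 86.8 and 194 CPM in 30WL (-5.60 ± 0.40, FDR 4.15e-09). ROF2, a peptidyl-prolyl isomerase, had a log2FC of -5.44 ± 0.42 and HSA32, needed for heat memory, of -3.49 ± 0.26. For these 4 genes the 21FR libraries lay within 2 times of those of 21WL, as at 3.98 and 4.17 CPM of GOLS1 in 21WL.

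The promoters of HSP17.4, HSFA2 and GOLS1 are shown because each holds the heat shock element, alternating GAA and TTC triplets to which heat shock factors can bind. The windows are again the 250 bases before the annotated start, in the direction of transcription in TAIR10.1, at chr3:16984868-16985117, minus strand, for HSP17.4, at chr2:11135374-11135623, plus strand, for HSFA2 and at chr2:19370479-19370728, minus strand, for GOLS1. Capitals mark CACGTG and every match of GAANNTTC or TTCNNGAA, with N for any base.
HSP17.4: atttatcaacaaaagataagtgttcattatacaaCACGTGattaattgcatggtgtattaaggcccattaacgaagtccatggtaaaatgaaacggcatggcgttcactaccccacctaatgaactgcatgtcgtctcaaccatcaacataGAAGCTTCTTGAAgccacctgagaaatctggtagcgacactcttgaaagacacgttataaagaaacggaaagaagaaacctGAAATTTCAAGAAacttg
HSFA2: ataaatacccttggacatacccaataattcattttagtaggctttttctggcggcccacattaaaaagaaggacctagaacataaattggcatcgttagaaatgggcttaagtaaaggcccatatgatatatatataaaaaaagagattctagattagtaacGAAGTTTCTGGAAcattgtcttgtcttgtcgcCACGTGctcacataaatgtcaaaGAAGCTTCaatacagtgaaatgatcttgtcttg
GOLS1: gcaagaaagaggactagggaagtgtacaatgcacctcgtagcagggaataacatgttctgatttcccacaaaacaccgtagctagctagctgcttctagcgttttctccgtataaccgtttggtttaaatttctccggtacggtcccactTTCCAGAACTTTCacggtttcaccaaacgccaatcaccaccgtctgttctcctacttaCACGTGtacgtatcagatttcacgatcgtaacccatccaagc

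The 3 windows each hold a run of 3 triplets, GAANNTTCNNGAA or TTCNNGAANNTTC, and each also holds a G-box. They were chosen because of these matches. Such a run was in 16 of the 500 windows of genes higher in 30WL (3.2%), in 2 of the 469 of genes higher in 21FR (0.426%) and in 0.440% of those of tested genes. Among the 51 genes higher in 30WL by more than 3 on the log2 scale, 6 windows (11.8%) held it, and among the 33 genes higher in 21FR by as much, 1 (3.03%) did. It was in 1 of the 7 windows of small heat shock proteins (14.3%) and in 2 of the 13 of other heat-response genes (15.4%). None of these runs was in the HSP70, HSP90 and HSP100 genes, with 0 of 15 windows. A pair of triplets, GAANNTTC or TTCNNGAA, which every longer run contains, was in 20.4% of the windows of genes higher in 30WL, 12.6% of those higher in 21FR and 15.6% of those tested, and in 1 of the 15 windows (6.67%) of HSP70, HSP90 and HSP100 genes. Most genes higher in 30WL thus had no such run in these 250 bases.

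Of 13 chaperones of the endoplasmic reticulum, 1 was higher in 30WL, and 10 were at the FDR alone, with a median log2FC of -0.67. ERDJ3A, a J-domain co-chaperone, was at 2.61 and 3.12 CPM in 21FR and at 18.9 and 61.0 CPM in 30WL (log2FC -3.82 ± 0.38, FDR 4.80e-07). BIP1 (-0.99 ± 0.17), SDF2 (-0.98 ± 0.14) and ERDJ3B (-0.92 ± 0.12) lay just under the threshold on the log2FC. With all libraries kept, DESeq2 called 2 of the 13. BIP1 was over the threshold with DESeq2 (-1.002) and with the 3 h libraries alone (-1.005). BIP1, an HSP70 of this compartment, was at 148 and 166 CPM in 21FR and at 288 and 335 CPM in 30WL. The count called was 2 without 21FR replicate 1, without 30WL replicate 1 and without 30WL replicate 2, and it was 3 without 21FR replicate 2.

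Of the genes higher in 30WL, the 10 of smallest FDR were, besides HOP3, in none of the heat lists. AT3G24100, annotated as a protein of the SERF family, was at 36.6 and 34.5 CPM in 21FR and at 143 and 150 CPM in 30WL (log2FC -2.04 ± 0.10, FDR 3.66e-11). CP5, annotated as a polyketide cyclase and lipid transport protein, was at 638 and 714 CPM in 21FR and at 3211 and 2966 CPM in 30WL (-2.19 ± 0.13, FDR 4.82e-10). The 30WL libraries of these 2 genes were as close to each other as those of 21FR. VHA-E3, a subunit of the vacuolar proton pump, was at 18.2 and 20.6 CPM in 21FR and at 92.5 and 110 CPM in 30WL (-2.39 ± 0.15, FDR 8.27e-10). AT5G57150, annotated as a bHLH protein, had a log2FC of -1.74 ± 0.11, and AT2G46250, annotated as a myosin heavy chain-like protein, of -1.73 ± 0.12. AT1G72660, annotated as a P-loop nucleoside triphosphate hydrolase, was at 0.810 and 0.900 CPM in 21FR and at 24.7 and 39.6 CPM in 30WL (-5.24 ± 0.30, FDR 3.56e-10). AT2G29500, annotated as an HSP20-like chaperone and not in the list of small heat shock proteins, had a log2FC of -5.26 ± 0.34. AT5G12110, annotated as elongation factor 1-beta, was at 12.6 and 18.0 CPM in 21FR and at 160 and 316 CPM in 30WL (-3.97 ± 0.27).

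SR proteins help to choose splice sites. Of 16, 3 were higher in 30WL and 0 were higher in 21FR. At the FDR alone 8 were higher in 30WL and 3 in 21FR, against 2915 and 2925 of the 20145 genes tested. SR30 was at 75.3 and 83.8 CPM in 21FR and at 215 and 229 CPM in 30WL (log2FC -1.48 ± 0.10, FDR 1.44e-09), with 80.7 and 80.2 CPM in 21WL. SR45A (-2.65 ± 0.28) and SR34B (-1.03 ± 0.13) were the other two called, and SR34B was under the threshold without 21FR replicate 1 (-0.96).

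Of 20 clock genes, 5 were higher in 30WL and 0 were higher in 21FR. At the FDR alone 8 were higher in 30WL and 5 in 21FR, against 2915 and 2925 of the 20145 genes tested. The median log2FC of the clock genes was -0.04. PRR7, a repressor of the morning genes, was at 54.4 and 50.1 CPM in 21FR and at 179 and 196 CPM in 30WL (log2FC -1.84 ± 0.25, FDR 1.50e-05). LNK1, a coactivator, was at 53.0 and 61.0 CPM in 21FR and at 121 and 151 CPM in 30WL (-1.26 ± 0.16, FDR 9.16e-06). RVE7 (-1.95 ± 0.32) and, named after their values were seen, PRR9 (-1.71 ± 0.31) and LNK2 (-1.54 ± 0.29) were the others. The closely related morning factors CCA1 and LHY went opposite ways under the threshold, at -0.98 ± 0.26 (FDR 0.00737) and 0.93 ± 0.26 (FDR 0.00938).

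Of 21 antenna genes, whose proteins bind chlorophyll around the photosystems, 2 were higher in 30WL and 0 were higher in 21FR, and 14 were higher in 30WL at the FDR alone, with a median log2FC of -0.57. Their summed level was 48862 and 45405 CPM in 21FR, against 72875 and 75032 CPM in 30WL. LHCA1 was at 3339 and 3026 CPM in 21FR and at 6980 and 7324 CPM in 30WL (log2FC -1.17 ± 0.16, FDR 1.56e-05), and LHCB1.5 had a log2FC of -1.21 ± 0.17. LHCB1 genes have near-identical copies, so that reads shared by them were not counted. Without 21FR replicate 1, 5 antenna genes were called. Of 12 genes of chlorophyll synthesis, 1 was higher in 21FR, PORB, an enzyme of the light-dependent step, at 417 and 462 CPM in 21FR and at 183 and 228 CPM in 30WL (1.1 ± 0.19), and it fell to 0.95 without 30WL replicate 1. CHLG (0.85 ± 0.13) and GSA1 (0.95 ± 0.17) were higher in 21FR under the threshold.

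Of 10 cold genes 2 were higher in 21FR, of 7 flowering time genes 3, of 10 cytokinin genes 2 and of 3 growth-promoting HLH genes 1, and 0 members of these lists were higher in 30WL. Several of these calls rested on 1 library or on few counts. RD29A, a dehydration and cold gene, was at 132 and 98.4 CPM in 21FR and at 23.6 and 30.0 CPM in 30WL (log2FC 2.1 ± 0.72, FDR 0.0332), but the 2 libraries of 21WL were at 109 and 30.1 CPM and the call was lost without any 1 of the 4 libraries compared. COR27, the other of 10 cold genes called (1.04, FDR 0.0404), was lost in the same way, while DESeq2 called 4 of the 10. CO, a B-box activator of flowering, was at 3.06 and 3.96 CPM in 21FR and at 1.1 and 0.865 CPM in 30WL (1.84 ± 0.32, FDR 0.000179). FT, which CO activates, had 6 and 5 counts in 21FR and 0 and 0 counts in 30WL, and its call was lost without 30WL replicate 2 (FDR 0.0671). TSF, its close relative, had 11 and 3 counts in 21FR and 0 and 1 counts in 30WL. Its call was lost with DESeq2 (FDR 0.0803) and with the 3 h libraries alone (FDR 0.0596). It was also lost without 21FR replicate 1 (log2FC 2.333) and without 30WL replicate 1 (log2FC 2.645). FLM, a repressor of flowering, had a log2FC of 0.84 ± 0.09 at an FDR of 1.32e-06, under the threshold on the log2FC.

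ARR15, a type-A response regulator that dampens cytokinin signalling, had a log2FC of 2.66 ± 0.47 at an FDR of 0.000226. CKX5, which degrades cytokinin, was at 8.64 and 9.0 CPM in 21FR and at 4.97 and 3.56 CPM in 30WL (1.06, FDR 0.0132), and its call was lost without either 21FR library (FDR 0.0532 and 0.0534) and without 30WL replicate 2 (FDR 0.157). Of 27 B-box genes, BBX29 (1.74 ± 0.26) and CO were higher in 21FR and BBX17 (-1.08 ± 0.22) was higher in 30WL. BBX17 was under the threshold without 21FR replicate 1 (-0.78) and without 30WL replicate 2 (-0.80). PRE1, an HLH protein that frees growth factors from their inhibitors, was at 5.81 and 6.30 CPM in 21FR and at 3.44 and 1.73 CPM in 30WL (1.26 ± 0.31), and was not called without 30WL replicate 2 (FDR 0.122). Of 8 fatty acid desaturases, 0 were called by edgeR or DESeq2 and 4 had an unadjusted p under 0.05. FAD8, of the chloroplast (0.85 ± 0.14), and FAD2, of the endoplasmic reticulum (-0.75 ± 0.14), passed the FDR in opposite directions.

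**Figure D3:**
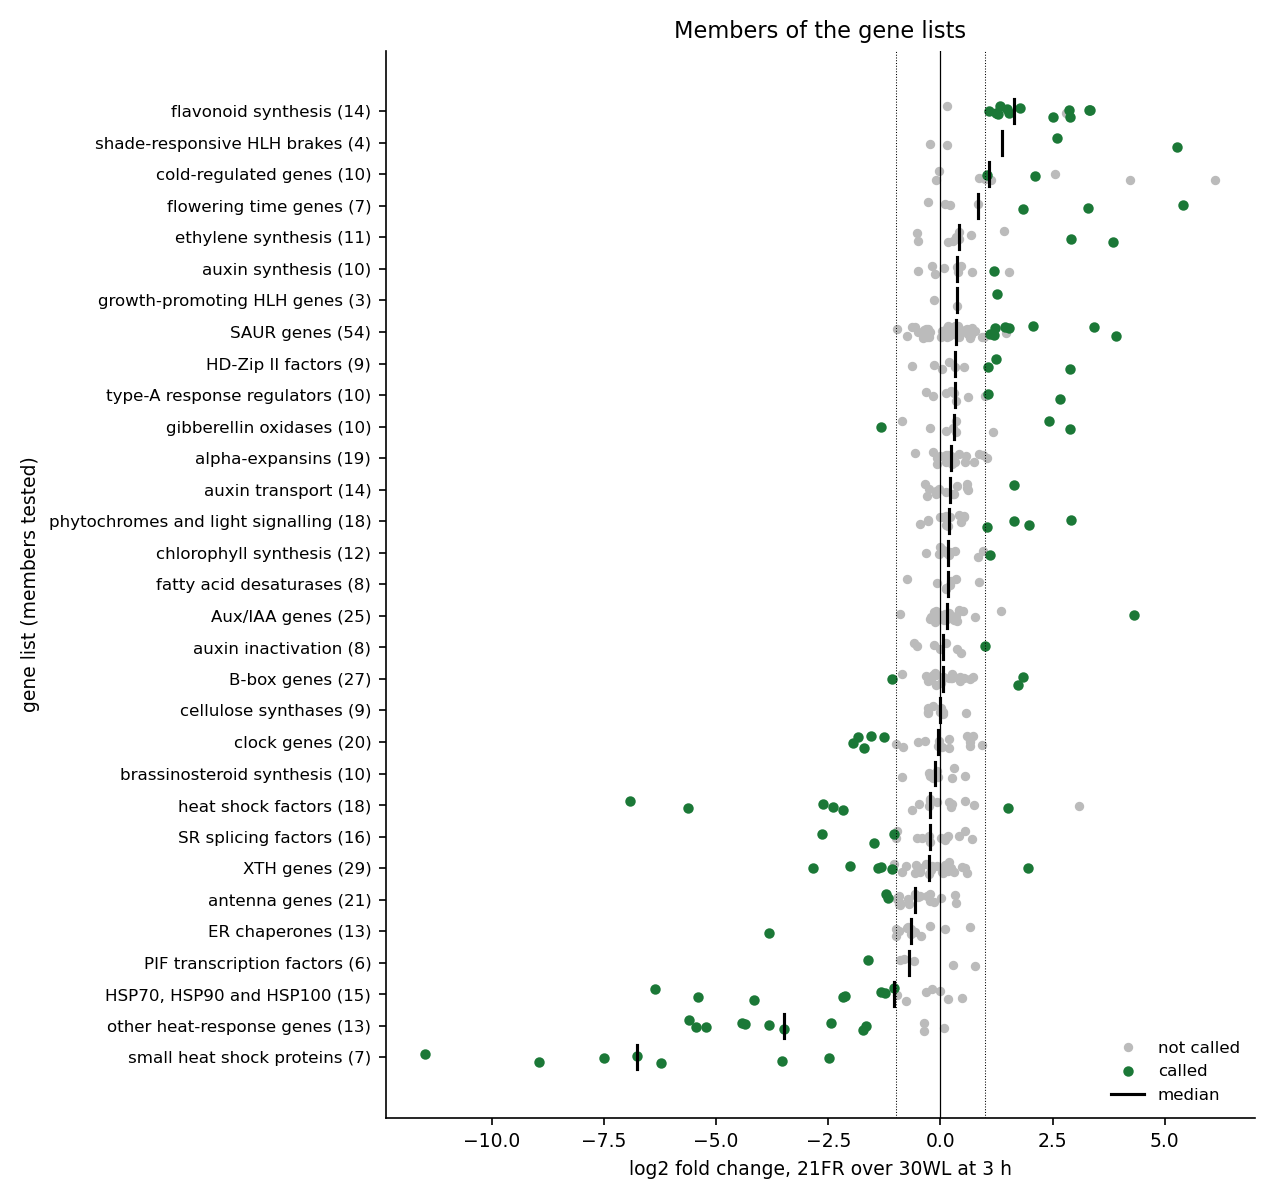
log2FC of 21FR over 30WL at 3 h for the tested members of each gene list, with the number tested in brackets. Each point is 1 gene, green where called and grey where not, a black bar is the median of the list and dotted lines mark a log2FC of 1 and -1. Flavonoid synthesis lies highest, at a median of 1.64, and small heat shock proteins lowest, at -6.77. 8 members had at most 3 counts in both libraries of a group, so that their points are no measure of size.

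The direct comparison does not tell which of the 2 groups had moved from the control, and each was therefore read beside 21WL. These comparisons share libraries with the direct one, so that the values are given side by side only. In 21FR against 21WL, 35 genes were higher and 6 were lower (0.204% of those tested), while in 30WL against 21WL 355 were higher and 268 were lower (3.09%). The 492 genes higher in 21FR than in 30WL had a median log2FC over 21WL of 0.36 in 21FR (quartiles 0.11 and 0.63) and of -1.02 in 30WL (quartiles -1.37 and -0.78). The 540 genes higher in 30WL had a median of -0.31 in 21FR and of 1.08 in 30WL. In both directions the larger median shift was thus in 30WL. Without 30WL replicate 2 the count of 30WL against 21WL was 415 in place of 623, and without 21FR replicate 1 or 2 that of 21FR against 21WL was 18 or 25 in place of 41.

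Single genes showed both kinds of difference. PIL1 had a log2FC over 21WL of 6.02 in 21FR (FDR 2.25e-11) and of 0.74 in 30WL (FDR 0.26), and ATHB2 had 2.67 (FDR 2.28e-08) and -0.23 (FDR 0.497). HFR1 was higher in both, by 3.63 in 21FR and by 1.02 in 30WL (FDR 0.0184). For CHIL the values were 0.16 in 21FR (FDR 0.821) and -1.33 in 30WL (FDR 1.98e-08), and for OEP6 0.16 (FDR 0.992) and -2.62 (FDR 3.14e-07). Thus PIL1 and ATHB2 were raised in 21FR, whereas CHIL and OEP6 were reduced in 30WL. PHYB had moved in both groups, by 0.74 in 21FR (FDR 3.27e-05) and by -0.29 in 30WL (FDR 0.0162), and neither passed the threshold on the log2FC. XTH7 moved likewise but the other way, by -0.77 in 21FR (FDR 0.0396) and by 0.55 in 30WL (FDR 0.0236). GA3OX1 was lower in 21FR than in 21WL (-1.07, FDR 0.0221) and had a log2FC of 0.25 in 30WL (FDR 0.419). PIF4 had -0.21 in 21FR (FDR 0.979) and 1.40 in 30WL (FDR 0.00037).

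The seedlings given both signals shared no library with the direct comparison, and the called genes were read in 30FR against 21WL. Of the 540 genes higher in 30WL than in 21FR, 183 were called higher and 2 lower in 30FR, against 2.08 and 2.03% of all genes tested, and their median log2FC was 0.85. Of the 492 genes higher in 21FR than in 30WL, 148 were called lower and 29 higher in 30FR, with a median of -0.78. Under both signals the median of either set thus lay on the side of 30WL. PIL1 (log2FC 5.18), IAA29 (5.33), HFR1 (3.95) and ATHB2 (2.71) were among the 29 genes higher in 30FR. CHIL (-0.92, FDR 1.78e-06), ELIP2 (-1.66, FDR 6.98e-06) and OEP6 (-2.74, FDR 1.67e-07) were lower in 30FR, and of these CHIL was under the threshold.

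**Figure D4:**
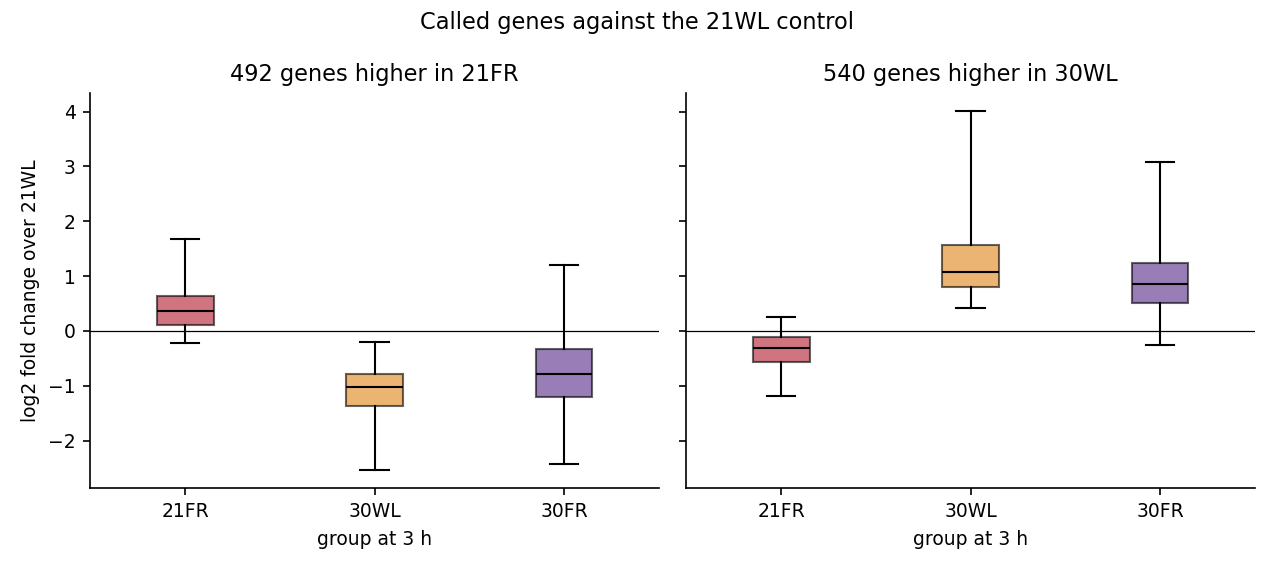
log2FC over 21WL at 3 h of the 492 genes called higher in 21FR (left) and the 540 called higher in 30WL (right), in 21FR, 30WL and 30FR. Boxes give the quartiles and the median, and whiskers the 5th and 95th percentiles. The medians are 0.36, -1.02 and -0.78 on the left and -0.31, 1.08 and 0.85 on the right; 21FR and 30WL chose the genes, and 30FR did not.

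The same 2 conditions were compared at 1, 6 and 24 h with separate libraries. Of the 492 genes higher in 21FR at 3 h, 145 were called higher at 1 h (1.74% of all genes were), 140 at 6 h (1.29%) and 108 at 24 h (0.923%), and 1, 5 and 1 were called lower. Of the 540 genes higher in 30WL at 3 h, 241 were called higher in 30WL at 1 h (2.41% of all genes), 150 at 6 h (1.18%) and 143 at 24 h (1.46%). A log2FC on the same side of 0 was found for 91.1, 91.7 and 92.9% of the former and for 94.1, 95.4 and 93.9% of the latter. The median log2FC of the genes higher in 21FR was 0.78 at 1 h, 0.77 at 6 h and 0.73 at 24 h, and that of the genes higher in 30WL was -0.99, -0.81 and -0.74. These values are nearer 0 than those at 3 h, at which the genes had been chosen.

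**Figure D5:**
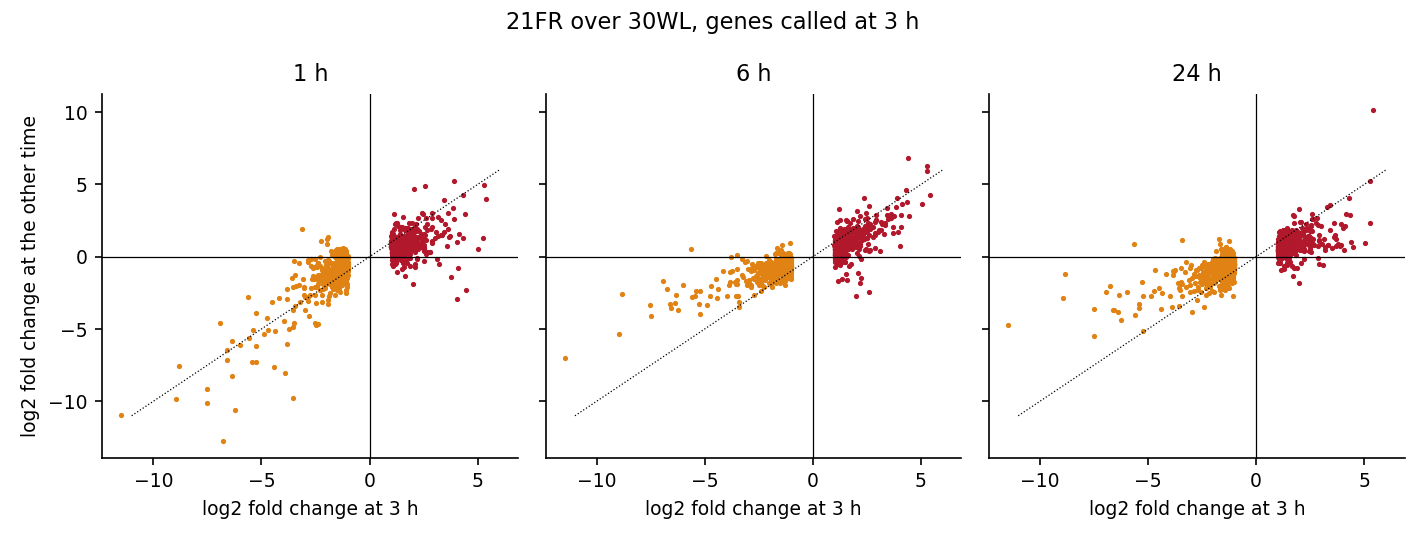
log2FC of 21FR over 30WL at 3 h (horizontal) against that at 1, 6 or 24 h (vertical, separate libraries) for the 1032 genes called at 3 h, red where higher in 21FR and orange where higher in 30WL, with a dotted line where both are equal. Most points keep the side of 0 that they had at 3 h, as 91.1 to 95.4% of them did, and in the panels of 6 and 24 h the lowest orange points lie above the dotted line.

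PIL1 and IAA29 differed by a similar size at all times, with log2FC of 4.93, 5.27, 5.92 and 5.22 for PIL1 and of 4.28, 4.31, 4.61 and 4.05 for IAA29 at 1, 3, 6 and 24 h. HFR1 had log2FC of 1.15 at 1 h, 2.61 at 3 h and 3.52 at 6 h. PIF4 had log2FC of -2.63 at 1 h, -1.62 at 3 h, -0.43 at 6 h (FDR 0.229) and -1.03 at 24 h. The test of the difference itself, between the log2FC at 3 h and at another time, called 37 genes for 1 h (0.184%), 42 for 6 h (0.208%) and 55 for 24 h (0.273%). Neither PIL1 nor IAA29, HFR1 or PIF4 was among them. Among the list medians, that of the small heat shock proteins was -9.84 at 1 h, -6.77 at 3 h, -3.35 at 6 h and -2.88 at 24 h, and that of flavonoid synthesis was 1.23, 1.64, 1.03 and 0.82. Cold-regulated genes had a median of -0.98 at 1 h and 1.09 at 3 h, and SAUR genes had 18 members higher in 21FR at 1 h, 8 at 3 h, 19 at 6 h and 3 at 24 h. The differences between these list values were not tested.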

How the data were processed

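RNA of whole seedlings was sequenced as stranded poly(A) libraries, single-end. The authors aligned reads to TAIR10 with STAR 2.5.4 and made strand-specific gene counts with HTSeq 0.6.0. The deposited counts were used without change. A table of the authors' normalized values was not used. Summary lines stayed out of library sizes.

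The 20145 genes that exceeded 1 CPM in 2 or more libraries entered 1 fit of edgeR 4.0.16 (R 4.3.3) over all 32 libraries, with 16 groups and TMM, and a quasi-likelihood test. The standard error is the log2FC without prior count over the square root of F. edgeR was tested on simulated counts. DESeq2 1.42.0 was an alternative. 

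36 gene lists were matched by symbol and locus, with 7 of 322 members dropped. Members and lists were chosen with earlier results of these data known. Named were the 10 genes with the smallest FDR in each direction, 18 genes named by the study and up to 4 members of each list with the smallest FDR. Other genes were chosen after their values were seen, as were the promoters. Promoters came from RefSeq's TAIR10.1, read with Python 3.11.15. A count of 0 allows 3 counts, or 0.131 to 0.216 CPM. Replicates are biological per the labels.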

Additional observations from a re-analysis of the deposited data

Results flagged for a closer look

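The difference between 21FR and 30WL at 3 h was tested against the same difference at the other times, and 37 genes were called for 1 h, 42 for 6 h and 55 for 24 h. All values here are the log2FC at 3 h minus that at the other time. Such a value does not give the side of 0 on which the gene lay at the other time. Against 1 h, ELIP2 (1.92), OEP6 (2.47), ELIP1 (1.64) and ERD10 (1.87), a dehydrin, had a higher log2FC at 3 h, and AT2G46250 (-1.3) a lower one. ELIP1 had a log2FC of -0.01 at 1 h.

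Against 6 h, HOP3 (-2.15), HSP90.1 (-3.14), GOLS1 (-2.82), ROF2 (-2.71), LNK1 (-1.32) and XTH10 (-1.66) had a lower log2FC at 3 h, and PORB (1.45) a higher one. Without 21FR replicate 1 or replicate 2 this test called 0 genes, with 1828 and 1943 genes at an unadjusted p under 0.05, and without 30WL replicate 2 it called 4.

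Against 24 h, HOP3 (-1.88), AT2G29500 (-3.48), CLPB4 (-1.52), HSA32 (-1.74) and ERDJ3A (-2.58) were more strongly on the side of 30WL at 3 h. ATHB2 (1.72) and ELIP2 (1.8) were more strongly on the side of 21FR. LHCB2.1 (1.28), an antenna gene, lay on the side of 30WL at 3 h, with a log2FC of -0.73, and less strongly so than at 24 h. Without 30WL replicate 1 this test called 144 genes, without 30WL replicate 2 it called 10 and without 21FR replicate 1 it called 13.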

How the results depend on the processing

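The counts of 1032 genes in all, 492 higher in 21FR and 540 higher in 30WL, stayed within 1.5 times under DESeq2's size factors, DESeq2, the likelihood ratio test, no expression filter, the 3 h libraries alone, the 4 libraries alone and each library left out (775 to 965 genes). The FDR alone gave 5840 (2925 and 2915), and glmTreat, which tests against a log2FC of 1, gave 161 (51 and 110). With glmTreat, the counts against 21WL were 9 for 21FR, 78 for 30WL and 125 for 30FR, and those of 21FR against 30WL were 134, 39 and 50 at 1, 6 and 24 h. With the FDR alone they were 96, 4054 and 4844, and 4662, 3306 and 3194. The 3 h libraries alone gave 24 genes for 21FR against 21WL. Leaving out a library gave 18 to 40 genes there and 415 to 616 for 30WL against 21WL.

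The tests of 3 h against 1, 6 and 24 h were the least stable. They called 75, 68 and 95 genes at the FDR alone, 134, 138 and 130 with the likelihood ratio test, 62, 85 and 84 without the filter and 88, 114 and 116 with DESeq2. glmTreat called 0, 0 and 1, with 208, 158 and 167 genes at an unadjusted p under 0.05. Leaving out a library gave 14 to 41, 0 to 96 and 10 to 144.

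Of all list members, 98 were called, 201 at the FDR alone and 41 with glmTreat. glmTreat called 4 HSP70, HSP90 and HSP100 genes, 5 flavonoid genes, 2 SAURs, 1 clock gene and 1 XTH, and the FDR alone 13 SAURs, 8 clock genes and 9 XTHs. SAURs numbered 5 with DESeq2 and with the 3 h libraries alone. Leaving out a library gave 4 to 6 SAURs, 4 to 9 HSP70, HSP90 and HSP100 genes and 3 to 5 heat shock factors. The causes were not tested. Of 157 named genes, 0 calls changed direction under any alternative, and 142 to 145 kept their side of the threshold when a library was left out.

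Same-numbered libraries of 21FR and 30WL at 3 h deviated together with a correlation of 0.02 across genes, so that the numbers were not taken to pair them. With the replicate number as a block, 1043 genes were called (502 and 541), and the named call of GH3.3 was lost (FDR 0.0545). A fit that leaves out a library gives its group 1 sample, which is assumed to vary like the other groups.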
